A study of Mus musculus with 6 samples.

Results

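Basal duct cells high in Cd74 and Snai2 are a subset of the keratin 5 and keratin 14 positive cells at the base of the ducts of the mouse submandibular gland. They were chosen from single-cell counts of 1 library, a sort of basal cells from untreated glands. A gate kept cells with at least 500 genes, at most 20% mitochondrial UMIs, at least 2 UMIs of Krt5 and at least 5 of Krt14. It also required fewer than 10 UMIs over the contractile genes Acta2, Tagln, Myh11 and Cnn1, and fewer than 8 over the division genes Mki67, Top2a, Cdk1, Ube2c and Birc5. A UMI is a molecular tag that counts 1 captured RNA molecule. Within the gate, the log-scaled levels of Cd74, Il18r1, Clca3a2 and Snai2 were each turned into z values and averaged, and the top 15% of cells are called members here. They were 460 of 3069 gate cells, and the other 2609 gate cells served as the comparison. The basal sort held 4418 cells that passed the filter, and all 3 libraries of the series 11140. The score ran from -0.793 to 3.33 with a median of -0.159, and the cut lay at 0.799 within a continuous range, with 152 cells within 0.1 of it. Members are therefore the upper range of a score and not a separated cluster.

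Basal duct cells sit on the basement membrane under the luminal cells of the salivary ducts, bind it through integrins and hemidesmosomes, and carry the transcription factor p63. Cd74 encodes the invariant chain, which guides major histocompatibility complex (MHC) class II molecules to the compartment where they are loaded with peptide. Il18r1 encodes a subunit of the interleukin 18 receptor, Clca3a2 a member of the chloride channel accessory family, and Snai2 the zinc-finger factor Slug, a repressor of epithelial genes that basal cells of several epithelia carry. MHC class II is best known from immune cells, and epithelial cells can carry it after exposure to interferon gamma.

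The series profiled female wild-type C57BL/6J mice, an inbred laboratory strain, labelled as 8 to 10 weeks old. The members came from a sort of Epcam-positive, Cd49f-high cells of untreated glands, and the other libraries held the Epcam-positive epithelium of irradiated glands, collected 90 days after 30 Gy to the left gland, and of untreated glands. Sorting set aside dead cells, doublets by scatter and cells stained for Cd3, Cd16/Cd32, Cd31 or Cd45. Each library pooled 3 mice whose cells carried 1 of 3 hashtag antibodies, so the mouse is the replicate, and no label separates the preparation of the library from the sort. The libraries shared 3 cell barcodes at most. In the basal sort, members of mice 1, 2 and 3 numbered 186, 95 and 144 and summed to 3301708, 1401166 and 2429267 UMIs, against 768, 455 and 623 other gate cells with 11864312, 6064772 and 9361517 UMIs. The remaining gate cells had a doublet call (165 cells, 26 of them members) or no hashtag call (633 cells, 9 of them members) and entered no comparison between members and others. Levels below are CPM, the count of a gene per 1000000 UMIs of such a sum.

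The 4 score genes were high in members of every mouse, which follows from the rule and was not tested. Cd74 (chr18:60803849-60812652 of GRCm38.p6) stood at 671, 625 and 625 CPM in members of mice 1, 2 and 3, against 119, 145 and 124 CPM in the other gate cells of these mice. Il18r1 (chr1:40465552-40500854) stood at 209, 193 and 184 CPM in members of mice 1, 2 and 3, against 62.8, 66.6 and 68.04 CPM in the other gate cells of these mice. For Clca3a2 (chr3:144780581-144819623) the levels were 205, 246 and 143 CPM in members of mice 1, 2 and 3, against 24.9, 22.9 and 17.1 CPM in the other gate cells of these mice. In none of these genes did the groups overlap, and Clca3a2 had the widest gap, with a log2 ratio of 3.17 ± 0.21 against 2.32 ± 0.19 for Cd74 and 1.57 ± 0.15 for Il18r1 (SD, n = 3 mice). Snai2 (chr16:14705852-14709395) had 269.6, 283 and 379.9 CPM in members of mice 1, 2 and 3, against 129, 104 and 151 CPM in the other gate cells of these mice. Its log2 ratio of 1.28 ± 0.20 (SD, n = 3 mice) was the smallest of the 4, and the other gate cells held it too. All 4 genes had a UMI in 338 of 460 members and in 118 of 2609 other gate cells, and 536 of the other cells had none of them.

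**Figure D1:**
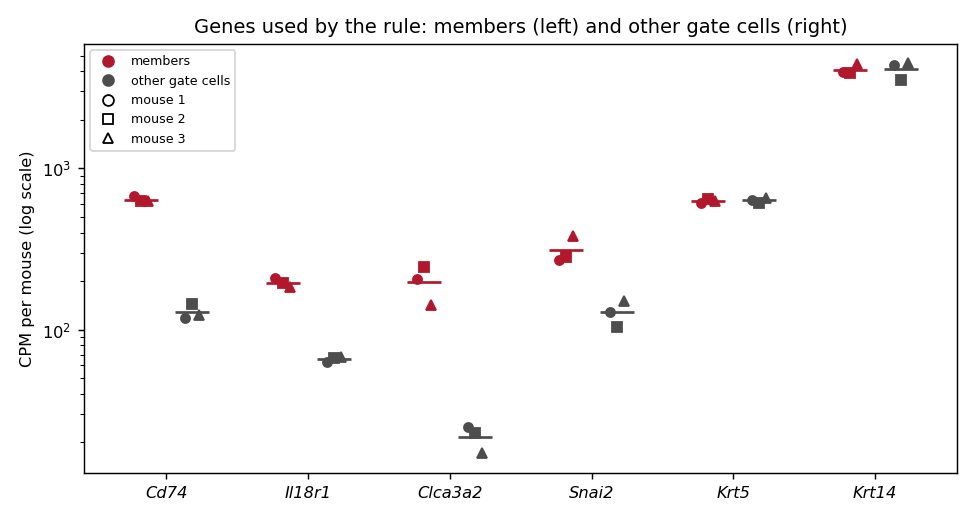
CPM per mouse on a log axis for the 4 score genes and the gate genes Krt5 and Krt14, in members (red, left) and other gate cells (grey, right). Points are mice and lines are means. The score genes do not overlap between the groups, while Krt5 and Krt14 do.

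Among gate cells, Cd74, Il18r1 and Clca3a2 went together more than any of them did with Snai2. Over 3069 cells of 1 library the Pearson correlation of log-scaled levels was 0.452 for Cd74 with Il18r1, 0.444 for Cd74 with Clca3a2 and 0.379 for Il18r1 with Clca3a2. With Snai2 it was 0.174 for Cd74, 0.192 for Il18r1 and 0.166 for Clca3a2. These are descriptions across cells that share a library and differ in depth. The score genes were also chosen with earlier results of these data known. Neither these correlations nor the ratios that follow are therefore separate evidence that the genes go together. When the score was built from the other 3 genes, its top 15% of cells held more of the gene left out. The log2 ratio was 1.45 ± 0.17 for Cd74, 1.12 ± 0.14 for Il18r1, 1.76 ± 0.07 for Clca3a2 and 0.59 ± 0.13 for Snai2 (SD, n = 3 mice). With cells chosen on one part of their UMIs and levels read from the rest, the ratios were 2.11, 1.19, 2.46 and 0.92. Just inside the cut (rank 10 to 15%) Cd74 stood at 491 CPM, Il18r1 at 150 CPM, Clca3a2 at 122 CPM and Snai2 at 260.2 CPM. Just outside it (rank 15 to 20%) they stood at 331, 152, 84.5 and 244 CPM.

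All 12 markers on the basal duct list were detected in members, 2 of them (Krt5 and Krt14) by the gate itself. Of the other 10, 2 were higher and 5 lower than in other gate cells, with a median log2 change of -0.23. The gate genes stood at 627 ± 15.4 CPM in members and 634 ± 22.4 CPM in other gate cells for Krt5 and 4092 ± 285 CPM in members and 4135 ± 509.6 CPM in other gate cells for Krt14 (SD, n = 3 mice). Markers of leukocytes, the best-known carriers of MHC class II, were at or near 0. The sort had set aside cells stained for Cd45, Cd31 and other surface proteins, and the gate required Krt5 and Krt14. Low leukocyte and endothelial levels were thus partly set in advance, in members and other gate cells alike. Of 26 leukocyte genes 15 had no UMI in members, among them Ptprc, which encodes Cd45, and Csf1r, the receptor of the macrophage growth factor. The summed leukocyte list held 49 UMIs, 5.75 to 8.64 CPM per mouse in members and 7.26 to 8.87 CPM in other gate cells. A median member held 0 UMIs of the leukocyte list, of the contractile gate genes and of the division genes, as did a median other gate cell. Of 10 endothelial genes 2 were at 0, among them Cdh5, and the list summed to 7.57 to 8.56 CPM in members and 5.94 to 24.1 CPM in others. Of 10 fibroblast genes 7 were at 0 in members, among them Col1a2, Col3a1, Lum and Pdgfra, while Dcn (decorin, a matrix proteoglycan) was abundant in both groups, with 1385 ± 338 CPM in members and 2834 ± 709 CPM in other gate cells (SD, n = 3 mice; log2 fold change -1.02 ± 0.04, adjusted p = 2.58e-21).

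Of 10347 tested genes outside the rule, 720 were higher in members (6.96%) and 611 were lower (5.91%) by edgeR's quasi-likelihood test on sums per mouse with the mouse as block, at an adjusted p under 0.05. Of these 1331 genes, 1296 changed in the same direction in all 3 mice. In 522 higher and 428 lower genes the levels did not overlap between the groups. These counts are among called genes only, and the blocked test favours genes that change alike in the mice. The shares over all tested genes are not given, so these counts are no separate evidence. At least 2-fold changes were seen in 139 higher and 133 lower genes, and the median log2 change of all tested genes was -0.01. Both groups are cells of the same library, ranked by a score whose genes were chosen with earlier results of these data known. The p-values therefore describe differences within these 3 mice only. The test shares the spread between sums across genes, so a low p-value does not by itself show a change alike in every mouse. Klk1 and Wfdc18 passed, yet Klk1 lost its call without mouse 2 and Wfdc18 without mouse 3. The number called depended on the block. Without it 208 genes were higher and 137 lower, all of them among the calls above. Of 91 called genes named in the text (Ovol1 and Itgb6 not counted), 33 then lost their call. Without mouse 1 the counts of higher and lower genes were 469 and 344.

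**Figure D2:**
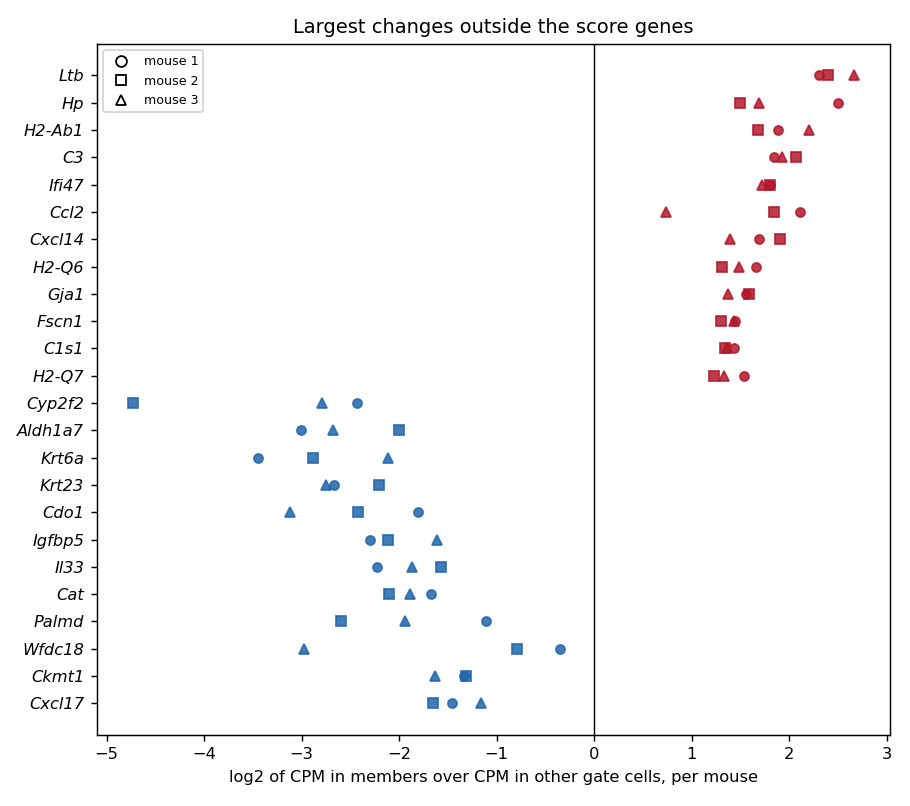
Log2 of CPM in members over CPM in other gate cells, 1 point per mouse, for the 12 genes with the largest change in each direction. All points of higher genes (red) lie right of 0 and all points of lower genes (blue) left of it. Wfdc18 stands apart in mouse 3.

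MHC class II genes other than Cd74 were high in the same cells. H2-Ab1, the class II A beta chain, had 93.3, 105 and 92.6 CPM in members of mice 1, 2 and 3, against 25.2, 32.8 and 20.1 CPM in the other gate cells of these mice. Its levels in members were all above those in other gate cells (log2 fold change 1.94 ± 0.098, adjusted p = 2.40e-19). H2-Aa, the A alpha chain, averaged 19.6 ± 3.51 CPM in members and 5.62 ± 0.7305 CPM in other gate cells (SD, n = 3 mice; log2 fold change 1.87 ± 0.19, adjusted p = 5.31e-10). H2-Eb1, an E beta chain, averaged 19.7 ± 3.56 CPM in members and 3.84 ± 0.279 CPM in other gate cells (SD, n = 3 mice; log2 fold change 2.38 ± 0.21, adjusted p = 6.08e-12). On the class II list 4 of 6 tested genes were higher and none lower, with a median log2 change of 1.44 against -0.01 over all genes. The fourth was H2-DMa, a chaperone of peptide loading, named after its value was seen, at 7.24 and 3.11 CPM in members and others (adjusted p = 0.0278), which did not pass without mouse 2 (adjusted p = 0.334) or mouse 3 (0.0905). Since Cd74 is the class II invariant chain and a score gene, the list was also read with the score built without it. H2-Ab1, H2-Aa and H2-Eb1 then had log2 changes of 1.30, 0.83 and 1.63 and still passed (adjusted p = 1.27e-13, 0.00407 and 9.96e-08). H2-DMb1 and Ifi30, which acts in the same loading compartment, did not pass, with log2 changes of 0.09 and 0.06. The share of cells with a UMI shows how far this went. With every cell thinned to 5000 UMIs, 31.1% of members, 7.71% of other gate cells and 2.28% of contractile cells of the same library had an H2-Ab1 UMI, and unthinned the shares were 57.2%, 17.1% and 3.95%. H2-Aa UMIs were found in 7.51%, 1.37% and 0.913% of thinned cells, and H2-Eb1 UMIs in 7.73%, 1.25% and 1.83%. For H2-Eb1 the other gate cells were not above the contractile cells, where 4 of 219 cells held a UMI (95% exact interval 0.500 to 4.61%). For H2-Aa it was 2 of 219 (0.111 to 3.26%), so other gate cells and contractile cells were not told apart in either gene. Whether the contractile level is a background was not tested. These contractile cells were shallower, with a median of 9869.5 UMIs against 16276.5 in members and 13761 in other gate cells, and 7 members and 54 other gate cells under 5000 UMIs were left out of the thinned shares.

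Promoter sequences are shown for H2-Aa and H2-Eb1, because class II promoters are known to carry an X box and a Y box, the Y box being a reversed CCAAT, and both genes were high in members. They are RefSeq promoters of GRCm38.p6, from 250 bases before to 50 bases after the gene start, 5′ to 3′ on the gene's strand. The capitals mark GCAAC, letters of the X box, and ATTGG, the Y box.
H2-Aa, chr17:34287774-34288073, minus strand: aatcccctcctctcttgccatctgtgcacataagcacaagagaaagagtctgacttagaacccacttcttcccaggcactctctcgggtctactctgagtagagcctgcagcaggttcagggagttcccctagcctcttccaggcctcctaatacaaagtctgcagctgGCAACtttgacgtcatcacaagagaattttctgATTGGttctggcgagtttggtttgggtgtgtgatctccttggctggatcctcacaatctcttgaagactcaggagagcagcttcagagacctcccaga
H2-Eb1, chr17:34305617-34305916, plus strand: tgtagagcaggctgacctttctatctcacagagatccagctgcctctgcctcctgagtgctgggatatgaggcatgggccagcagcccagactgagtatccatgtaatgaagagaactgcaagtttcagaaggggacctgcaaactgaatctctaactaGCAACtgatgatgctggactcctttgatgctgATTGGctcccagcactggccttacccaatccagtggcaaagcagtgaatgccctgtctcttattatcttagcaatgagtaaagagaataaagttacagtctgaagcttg
GCAAC began 81 bases before the start of H2-Aa and 91 before that of H2-Eb1, with 28 and 27 bases between it and ATTGG. Such a pair, with 15 to 35 bases between, was found on either strand in 1.02% of 32851 mouse promoters, while ATTGG alone was in 37.4% and GCAAC alone in 35.2%. These motifs were chosen after the sequences were seen, and a match of letters is a description, not a binding site. Of the 12 named higher genes 9 had a promoter entry, and 2 of these held ATTGG.

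Most genes of MHC class I presentation were higher, by smaller factors. Of 16 tested genes 14 were higher and none lower, with a median log2 change of 0.58. B2m, the light chain of class I molecules, had 1173, 1463 and 1193 CPM in members of mice 1, 2 and 3, against 641, 759.6 and 709 CPM in the other gate cells of these mice. The groups were far apart (log2 fold change 0.87 ± 0.05, adjusted p = 3.06e-18). Psmb8, an immunoproteasome subunit, had 101 ± 11.2 CPM in members and 52.3 ± 3.098 CPM in other gate cells (SD, n = 3 mice), and Psmb10, another, 40.6 ± 3.94 CPM in members and 24.6 ± 0.913 CPM in other gate cells. Their log2 changes were 0.93 and 0.74 (adjusted p = 5.33e-11 and 4.42e-06). The classical heavy chains H2-K1 and H2-D1 had log2 changes of 0.597 and 0.71, and H2-K1 averaged 1857 ± 27.9 CPM in members and 1239.9 ± 55.05 CPM in other gate cells (SD, n = 3 mice). Among the nonclassical class I genes, H2-Q7 had 295, 326 and 249 CPM in members of mice 1, 2 and 3, against 102, 139.7 and 99.3 CPM in the other gate cells of these mice. H2-Q6 had 121, 141 and 132 CPM in members of mice 1, 2 and 3, against 38.5, 57.1 and 47.1 CPM in the other gate cells of these mice, and H2-Q4 averaged 219 ± 14.9 CPM in members and 116 ± 4.76 CPM in other gate cells (SD, n = 3 mice). All 3 were higher without overlap, with log2 changes of 1.38, 1.51 and 0.92 (adjusted p = 1.72e-20, 2.59e-18 and 3.06e-14), but H2-Q genes are near copies of each other and the counting could split their reads. H2-T23 and Erap1 did not pass, with log2 changes of -0.02 and 0.39.

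The hashtag antibodies moved with these genes. Mouse hashtag reagents of this make are mixtures of antibodies to Cd45 and MHC class I, so their UMIs also read surface protein. Members carried a median of 491, 521 and 527 hashtag UMIs in mice 1, 2 and 3, against 320, 344 and 351 in other gate cells. Per 1000 RNA UMIs the medians were 27.3, 35.5 and 31.7 in members and 21.8, 27.5 and 24.3 in others. Of 633 gate cells without a hashtag call only 9 were members, or 1.42% (95% exact interval 0.652 to 2.68%), while members made up 19.5% (17.0 to 22.2%), 17.3% (14.2 to 20.7%) and 18.8% (16.1 to 21.7%) of the gate cells of mice 1, 2 and 3. The shares of the 3 mice lay within each other's intervals, which cover counting error only. Other gate cells without a call held less class I RNA, with 159 CPM of B2m, 461 CPM of H2-K1 and 337 CPM of H2-D1, and 8.98 CPM of H2-Q7. Cells without a call thus left the comparison mostly from the low end of the score. With gate cells that had hashtag UMIs and no doublet call given to the mouse of their highest hashtag, 985 genes were higher and 805 lower.

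**Figure D3:**
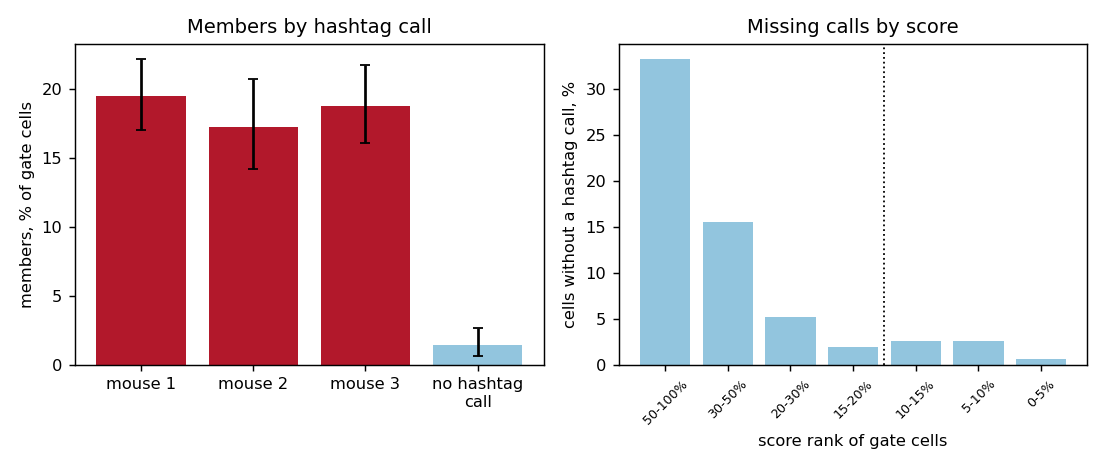
Left, members as a percentage of gate cells for each mouse and for cells without a hashtag call (bars start at 0, error bars are 95% exact intervals). Right, the percentage of cells without a hashtag call by score rank, from the lower 50% of cells to the top 5%. The share without a call was 33.2% in the lowest bin and 0.654% in the highest.

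Interferon-induced genes were mixed. On the list of 28 tested genes 11 were higher and 3 lower, with a median log2 change of 0.32. Ifi47, an interferon-inducible GTPase outside this list, had 48.2, 79.9 and 74.5 CPM in members of mice 1, 2 and 3, against 13.8, 22.9 and 22.6 CPM in the other gate cells of these mice, with no overlap (log2 fold change 1.78 ± 0.11, adjusted p = 4.40e-17). Iigp1, a GTPase of the same family, averaged 45.1 ± 13.8 CPM in members and 21.00 ± 6.699 CPM in other gate cells (SD, n = 3 mice; log2 fold change 1.12 ± 0.12, adjusted p = 3.96e-10), Gbp3, a guanylate-binding protein, 34.7 and 17.6 CPM in members and others (log2 change 0.96), and Cxcl9, a chemokine for T cells, 32.9 and 16.2 CPM (log2 change 1.05, adjusted p = 1.36e-07). Ifi202b went the other way with 69.6 ± 46.6 CPM in members and 171 ± 73.6 CPM in other gate cells (SD, n = 3 mice; log2 fold change -1.29 ± 0.09, adjusted p = 9.38e-15), although its ranges overlapped and its call was lost without the block (adjusted p = 0.18), as was that of Cxcl9 (adjusted p = 0.0691). The factor Irf1 was lower (log2 change -0.43, adjusted p = 0.00889) and Stat2, a component of type I interferon signalling, higher (log2 change 0.55, adjusted p = 0.0270), both named after their values were seen. Neither passed without mouse 1 (adjusted p = 0.103 for Irf1 and 0.221 for Stat2), Irf1 did not pass without mouse 3 (0.124), and Stat2 did not pass without mouse 2 (0.125). Isg15, a ubiquitin-like protein of the type I interferon response, did not pass (log2 change -0.03, adjusted p = 0.92), nor did the factor Irf7 (-0.11, adjusted p = 0.805).

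The 12 genes with the largest increases included the cytokine gene Ltb and the secreted proteins Hp, C3, Ccl2 and Cxcl14, with no list of complement or acute-phase genes tested. Ltb, which encodes lymphotoxin beta, had 37.6, 57.1 and 31.7 CPM in members of mice 1, 2 and 3, against 7.59, 10.9 and 5.02 CPM in the other gate cells of these mice. Its lowest member value was above every other value (log2 fold change 2.44 ± 0.15, adjusted p = 5.28e-17). Hp, the hemoglobin-binding acute-phase protein haptoglobin, had 201, 165 and 105 CPM in members of mice 1, 2 and 3, against 35.7, 58.7 and 32.5 CPM in the other gate cells of these mice. C3, the central protein of complement, had 76.6, 98.5 and 90.2 CPM in members of mice 1, 2 and 3, against 21.4, 23.4 and 23.8 CPM in the other gate cells of these mice. Both were higher in all mice without overlap (log2 change 1.97 and 1.94, adjusted p = 1.40e-18 and 2.40e-19), and C1s1, a complement protease, reached 53.5 ± 10.5 CPM in members and 20.7 ± 4.68 CPM in other gate cells (SD, n = 3 mice; log2 change 1.39). After thinning, a C3 UMI was found in 31.8% of members, 7.44% of other gate cells and 9.59% of contractile cells, a Ltb UMI in 16.8%, 2.43% and 0%, and an Hp UMI in 29.1%, 7.51% and 1.37%. Ccl2, the monocyte chemokine, had 39.4, 51.4 and 16.1 CPM in members of mice 1, 2 and 3, against 9.103, 14.3 and 9.61 CPM in the other gate cells of these mice, so that mouse 3 stood closest to its other gate cells (log2 fold change 1.69 ± 0.17, adjusted p = 1.51e-10). The size of its change depended on how members were chosen, with a log2 change of 0.89 when the score left out Cd74, 0.71 when it left out Clca3a2 and 0.54 (adjusted p = 0.0260) with the score taken after thinning. Cxcl14, an epithelial chemokine, had 27.3, 71.4 and 34.6 CPM in members of mice 1, 2 and 3, against 8.43, 19.1 and 13.1 CPM in the other gate cells of these mice (log2 fold change 1.68 ± 0.14, adjusted p = 4.42e-13). Members of mouse 2 were highest in both. On the NF-kB and chemokine list 10 genes were higher and 1 lower of 18 tested, with a median log2 change of 0.26. Lcn2, the iron-scavenging lipocalin, had a log2 change of 0.94 (adjusted p = 2.17e-07). The 1 lower gene was the neutrophil chemokine Cxcl2, with 32.7 ± 17.6 CPM in members and 77.7 ± 29.1 CPM in other gate cells (SD, n = 3 mice; log2 fold change -1.48 ± 0.19, adjusted p = 8.00e-08), whose ranges overlapped and which was not called without the block (adjusted p = 0.0629). Clca3a1, the neighbour and near copy of the score gene Clca3a2, averaged 16.8 ± 6.52 CPM in members and 3.47 ± 0.837 CPM in other gate cells (SD, n = 3 mice; log2 change 2.26), and reads could pass between the copies.

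In the interleukin 1 and 18 pathway around the score gene Il18r1, few genes passed the test. Of 11 tested genes none was higher and 1 was lower, with a median log2 change of 0.07. Il18, the ligand of the receptor, stood at 23.1 ± 1.899 CPM in members and 24.4 ± 0.944 CPM in other gate cells (SD, n = 3 mice), which did not pass (adjusted p = 0.892). Myd88, the adaptor of the pathway, did not pass either (log2 change 0.31, adjusted p = 0.0542). The 1 lower gene was Il33, an alarmin cytokine of the interleukin 1 family, with 8.78, 12.8 and 8.64 CPM in members of mice 1, 2 and 3, against 41.2, 38.1 and 31.6 CPM in the other gate cells of these mice. All member values were below all other values (log2 fold change -1.95 ± 0.16, adjusted p = 6.77e-13).

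**Figure D4:**
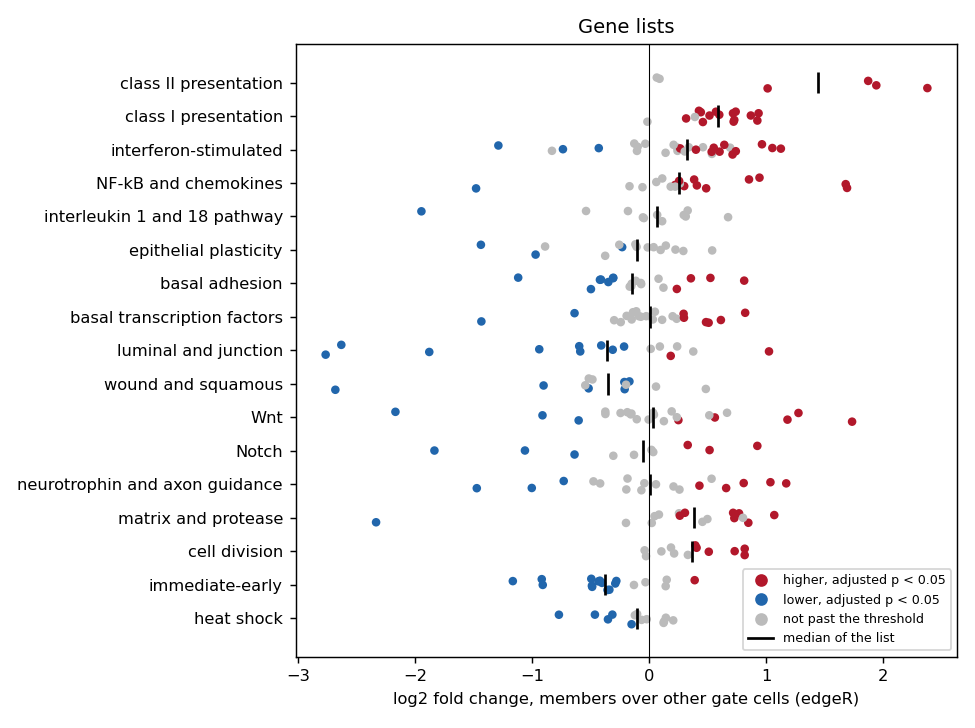
Log2 fold changes of members over other gate cells by edgeR for the tested genes of 17 lists, 1 point per gene outside the rule (Krt19, at 0 UMIs in members, is not drawn), with the median of each list as a black line. Class I and class II genes lie right of 0 except H2-T23 at -0.02, and most immediate-early genes lie left of it.

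Snai2 was high, and on the list of genes linked to epithelial plasticity none of 15 tested genes was higher and 3 were lower. That list joins epithelial genes such as Cdh1 and mesenchymal genes such as Vim, so its median log2 change of -0.11 gives no direction. Besides Tgfb2, the lower genes were Ovol1 (1.36 and 4.51 CPM in members and others, log2 change -1.44, adjusted p = 0.0157) and Itgb6 (3.56 and 7.56 CPM, -0.97, adjusted p = 0.0160). Both averaged under 10 CPM and were named after their values were seen, and their calls under the alternatives are not given. Vim, the mesenchymal intermediate filament, stood at 21.1 ± 4.73 CPM in members and 16.7 ± 3.66 CPM in other gate cells (SD, n = 3 mice; log2 fold change 0.22 ± 0.17, adjusted p = 0.471), and Cdh1, E-cadherin, which Snai2 is known to repress in other settings, at 277 ± 47.3 CPM in members and 302 ± 31.2 CPM in other gate cells (log2 fold change -0.11 ± 0.06, adjusted p = 0.242), so neither passed. Tgfb2, a transforming growth factor, was lower with 248 ± 30.9 CPM in members and 296 ± 1.02 CPM in other gate cells (SD, n = 3 mice; log2 change -0.23), but did not pass without mouse 1 (adjusted p = 0.0526) or mouse 2 (0.108). Among adhesion genes of basal cells 4 were higher and 7 lower of 19 tested, with a median of -0.15. Krt15, a basal keratin, had 241, 193 and 220.2 CPM in members of mice 1, 2 and 3, against 567, 422 and 446 CPM in the other gate cells of these mice. It was lower without overlap (log2 fold change -1.12 ± 0.06, adjusted p = 6.34e-19), while Krt17, another basal keratin, was higher with 3882 ± 633 CPM in members and 2711 ± 313 CPM in other gate cells (SD, n = 3 mice; log2 fold change 0.52 ± 0.05, adjusted p = 4.33e-11). Dag1, the laminin receptor dystroglycan, was higher (log2 change 0.81, adjusted p = 1.26e-09) and the desmosomal cadherin Dsc3 lower (log2 change -0.500, adjusted p = 2.67e-04). Itga6, the antigen of the sort, was lower with 145 ± 17.8 CPM in members and 183 ± 12.03 CPM in other gate cells (SD, n = 3 mice; log2 change -0.31, adjusted p = 7.98e-04). Of 22 transcription factors 6 were higher and 2 lower, with a median of 0.001. Trp63, which encodes p63, was among the higher ones (log2 fold change 0.51 ± 0.12, adjusted p = 0.00174), with the homeobox gene Irx1 (61.5 and 35.1 CPM in members and others, log2 change 0.82) and Id3, an inhibitor of helix-loop-helix factors (log2 change 0.61). Hes1, a Notch target, was lower (log2 change -0.64, adjusted p = 1.05e-11). The ranges of Trp63, Id3 and Hes1 overlapped between the groups, and Trp63 did not pass without mouse 1 (log2 change 0.37, adjusted p = 0.167). Gja1, the gap junction protein connexin 43, had 77.2, 89.2 and 109.9 CPM in members of mice 1, 2 and 3, against 26.2, 29.7 and 42.6 CPM in the other gate cells of these mice, with no overlap (log2 fold change 1.498 ± 0.09, adjusted p = 1.21e-16), and Fscn1, which bundles actin filaments, 44.8, 50.7 and 48.99 CPM in members of mice 1, 2 and 3, against 16.5, 20.6 and 18.2 CPM in the other gate cells of these mice (log2 fold change 1.41 ± 0.12, adjusted p = 7.29e-13).

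Many keratins and junction genes of luminal and wound-type cells were lower in members, while others did not pass or were higher. On the luminal and junction list 10 genes were lower and 2 higher of 16 tested, with a median log2 change of -0.36. Krt23 had 9.99, 6.42 and 9.88 CPM in members of mice 1, 2 and 3, against 63.4, 29.7 and 66.7 CPM in the other gate cells of these mice. Cldn10, a claudin of ion-selective tight junctions, averaged 3.47 ± 1.405 CPM in members and 24.99 ± 1.23 CPM in other gate cells (SD, n = 3 mice). Neither overlapped (log2 change -2.63 and -2.77, adjusted p = 6.79e-18 and 3.81e-13). Krt19, a luminal keratin, had 0 UMIs in members of the 3 mice and 10.1 ± 3.34 CPM in other gate cells, 256 UMIs in all, so it was at least 23.9-fold lower against a floor of 3 counts over the member sums. That bound holds for these members only, and just 2.68% of other gate cells held a Krt19 UMI. The log2 change was -3.13 with the score without Il18r1, -3.12 without Snai2 and -3.87 with the top 25% of cells as members. Krt7 was lower with 457 ± 12.9 CPM in members and 696 ± 33.9 CPM in other gate cells (SD, n = 3 mice; log2 change -0.59) and Krt18 did not pass (log2 change 0.01). Slc12a2, a sodium, potassium and chloride cotransporter, went against the list and was higher (log2 change 1.02, adjusted p = 5.33e-08). On the list of luminal duct markers 6 of 7 tested genes were lower, with a median of -0.59, and the summed list was 3734 to 4585 CPM in members and 4635 to 5140 CPM in others. Neither median moves when Krt19 is set to its bound. On the wound and squamous list 6 of 12 were lower, none was higher and 6 did not pass, with a median of -0.35. The keratin Krt17, given above as higher, is not on this list. Krt6a, a keratin of wounded and stressed epithelium, had 4.85, 4.28 and 14.8 CPM in members of mice 1, 2 and 3, against 52.9, 31.7 and 64.1 CPM in the other gate cells of these mice. It did not overlap (log2 fold change -2.68 ± 0.17, adjusted p = 3.39e-16), while Krt16, its frequent partner, was lower with overlap (log2 change -0.904). Granular duct genes, which encode kallikreins and other secreted proteins, were lower in 4 of 5 tested cases. Their sum was 75.4 to 185 CPM in members and 132 to 686 CPM in others, and of Klk1, an abundant product of granular duct cells, 109 and 261 CPM were found (log2 change -0.79). Without mouse 2 the log2 change of Klk1 was -0.08 (adjusted p = 0.809), and without mouse 3 it was -1.46. Their part in the changes above was not tested.

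Several of the other large decreases were in genes of single enzymes and secreted proteins, which form no list here. Cyp2f2, a cytochrome P450 enzyme, had 33.9, 6.42 and 28.8 CPM in members of mice 1, 2 and 3, against 183, 170.3 and 199.8 CPM in the other gate cells of these mice. Members of mouse 2 were lowest, and no member value came near the others (log2 fold change -2.83 ± 0.13, adjusted p = 5.76e-21). Without the cells of highest Scrublet doublet score the log2 change was -4.26. Aldh1a7, an aldehyde dehydrogenase, had 6.36, 7.14 and 5.76 CPM in members of mice 1, 2 and 3, against 51.1, 28.7 and 36.9 CPM in the other gate cells of these mice (log2 fold change -2.71 ± 0.18, adjusted p = 6.57e-16). Cat, the hydrogen peroxide enzyme catalase, had 52.1, 39.97 and 49.8 CPM in members of mice 1, 2 and 3, against 166, 172 and 185 CPM in the other gate cells of these mice. It was lower in all mice without overlap (log2 fold change -1.83 ± 0.09, adjusted p = 2.32e-20). Cdo1, a cysteine dioxygenase, and Ckmt1, the mitochondrial creatine kinase, had log2 changes of -2.31 and -1.42 (adjusted p = 4.03e-13 and 8.40e-10), and Palmd, palmdelphin, -1.58 (adjusted p = 2.19e-09). Igfbp5, a binding protein of insulin-like growth factors, had 35.7, 34.3 and 40.3 CPM in members of mice 1, 2 and 3, against 175, 148 and 123 CPM in the other gate cells of these mice. The gap was wide in each mouse (log2 fold change -2.01 ± 0.101, adjusted p = 2.28e-19). Cxcl17, a mucosal chemokine, averaged 85.3 ± 15.3 CPM in members and 227 ± 10.8 CPM in other gate cells (SD, n = 3 mice; log2 fold change -1.38 ± 0.08, adjusted p = 3.69e-18), opposite to Ccl2 and Cxcl14. Wfdc18, a small secreted protein with a WAP domain, had 16.7, 12.8 and 9.47 CPM in members of mice 1, 2 and 3, against 21.3, 22.3 and 74.6 CPM in the other gate cells of these mice. Its decrease rested on mouse 3 (log2 change -1.48, adjusted p = 2.16e-06), and without that mouse it was -0.48 with an adjusted p of 0.119. In other gate cells without a hashtag call, most of these genes were higher still, with 423 CPM of Cyp2f2, 437.7 CPM of Igfbp5, 238 CPM of Cat and 134 CPM of Il33.

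Signalling genes changed one by one. On the Wnt list 5 were higher and 3 lower of 23 tested, with a median log2 change of 0.03. The ligands Wnt10b and Wnt6 were higher, with 22.5 and 9.58 CPM for Wnt10b and 28.1 and 12.6 CPM for Wnt6 in members and others (log2 change 1.27 and 1.18, adjusted p = 1.05e-07 and 3.54e-08), and the inhibitor Notum was lower (log2 fold change -0.91 ± 0.12, adjusted p = 3.04e-07), as was the receptor Lgr6 (log2 fold change -0.605 ± 0.16, adjusted p = 0.00755). On the Notch list 3 were higher and 3 lower of 10, among them the ligands Dll1 (log2 change 0.92) and Jag1 (0.51) higher and the target Hes1 lower. Genes of axon guidance and neurotrophin signalling were mixed, with 5 higher and 3 lower of 18 tested on that list and a median of 0.01. Robo2, a receptor of Slit proteins, had 133, 125 and 86.03 CPM in members of mice 1, 2 and 3, against 58.3, 53.6 and 55.1 CPM in the other gate cells of these mice. It did not overlap (log2 fold change 1.03 ± 0.09, adjusted p = 5.17e-12), and Robo1 and Nrp2 were higher too (log2 change 0.66 and 0.81), while the ligand Sema3c was lower (-0.73). Calls were lost for Lgr6 without mouse 1 (adjusted p = 0.195), for Dll1 without mouse 2 (0.0561), and for Nrp2 and Sema3c without mouse 3 (0.143 and 0.0665). Among matrix genes 7 were higher and 1 lower of 16, with a median of 0.38. Col4a1 and Col4a2, the chains of basement membrane collagen IV, had 177 and 85.6 CPM and 57.3 and 31.9 CPM in members and others (log2 change 1.07 and 0.85, adjusted p = 5.33e-15 and 2.87e-08). Timp1, an inhibitor of matrix proteases, was higher (log2 change 0.77), and Tnc, the wound matrix protein tenascin C, was the 1 lower gene, with 5.27 ± 1.498 CPM in members and 26.4 ± 5.999 CPM in other gate cells (SD, n = 3 mice; log2 fold change -2.34 ± 0.19, adjusted p = 9.02e-13).

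Early response genes were lower. Of 18 immediate-early genes 13 were lower and 1 higher, with a median log2 change of -0.38. Fosb, a subunit of the AP-1 factor, had 69.4, 155 and 82.3 CPM in members of mice 1, 2 and 3, against 193, 291 and 179 CPM in the other gate cells of these mice. It did not overlap (log2 fold change -1.17 ± 0.08, adjusted p = 3.82e-15), while Fos was lower with overlap (log2 fold change -0.92 ± 0.07, adjusted p = 1.58e-13). Socs3, a feedback inhibitor of cytokine receptors, was the 1 higher gene (log2 change 0.39, adjusted p = 4.09e-04). Of 13 heat shock genes 5 were lower and none higher, led by Hspa1a (log2 fold change -0.77 ± 0.11, adjusted p = 1.23e-06), with a median of -0.11. The median mitochondrial share was 4.45, 3.92 and 3.63% in members of mice 1, 2 and 3, against 5.22, 4.63 and 4.56% in other gate cells. Its part in these differences was not tested. Genes of DNA replication and the G1 cyclins leaned the other way, with 6 of 12 tested higher and none lower and a median of 0.36. Ccnd2, cyclin D2, had 223, 199.8 and 226 CPM in members of mice 1, 2 and 3, against 119.5, 112 and 141 CPM in the other gate cells of these mice. It was higher without overlap (log2 fold change 0.81 ± 0.07, adjusted p = 5.09e-13), and Mcm5, Mcm4 and Mcm6, subunits of the replicative helicase, had log2 changes of 0.73, 0.51 and 0.403. None of these Mcm genes passed without mouse 1 (adjusted p = 0.234, 0.267 and 0.448), and Mcm6 did not pass without mouse 2 (0.0526). The gate had removed dividing cells, and a Mki67 UMI was found in 0.442% of thinned members and 1.37% of thinned other gate cells.

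Levels changed along the whole score and not at the cut alone. In 7 bins of score rank, from the lower 50% through ranks 30 to 50%, 20 to 30%, 15 to 20%, 10 to 15% and 5 to 10% to the top 5%, H2-Ab1 had mean levels of 13.4, 27.6, 56.96, 33.3, 72.05, 94.8 and 131 CPM over 3 mice. C3 had 7.67, 19.96, 51.4, 70.2, 85.01, 76.4 and 107 CPM, and H2-Q7 had 65.1, 126, 204, 184, 239, 285 and 358 CPM in the same bins. These genes already stood higher in the bins below the cut than in the lower 50% of cells. Ltb had 2.25, 9.08, 13.5, 27.7, 23.7, 26.6 and 78.00 CPM, so that the top 5% stood apart from the next bins. Krt15 had 596, 432, 299.9, 285, 239.9, 205 and 202 CPM and Cat 289, 78.3, 59.96, 45.8, 58.01, 37.7 and 43.97 CPM, with the largest step for Cat below rank 50%. Krt5 stayed between 556 and 657 CPM in all bins.

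**Figure D5:**
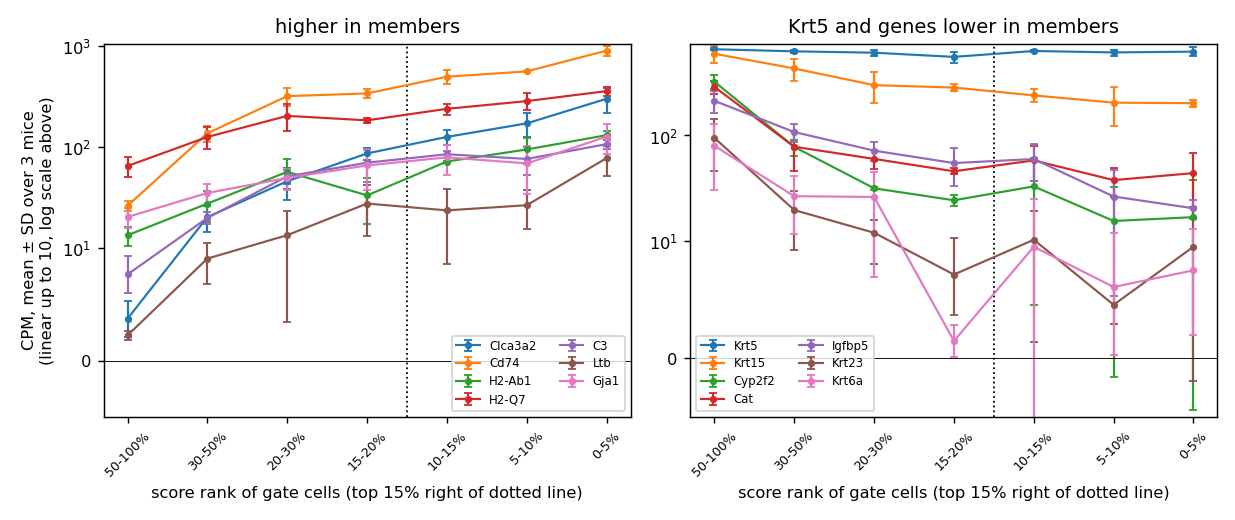
CPM by score rank of gate cells, from the lower 50% of cells to the top 5%, mean ± SD over 3 mice (axis linear up to 10 and logarithmic above). The dotted line is the cut at the top 15%. Genes higher in members stand above their lowest bin already left of the line, and Krt5 stays level.

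Contractile and dividing cells of the same sort set the scale. Contractile cells (228 cells with 10 or more UMIs of the 4 contractile gate genes) had 83.6 ± 86.96 CPM of Cd74, 6.48 ± 1.16 CPM of Il18r1 and 13.1 ± 19.2 CPM of Clca3a2 (SD, n = 3 mice). Mouse 2, with 27 of these cells, had 183 CPM of Cd74 and decides the spread. They held 161 ± 30.1 CPM of Gja1 and 255 ± 49.1 CPM of Krt23, while members had 92.1 and 8.77 CPM and other gate cells 32.8 and 53.2 CPM. Contractile cells and members thus both stood above other gate cells in Gja1, and on opposite sides of them in Krt23. Of 6 contractile-type genes tested outside the gate, 2 were higher in members than in other gate cells (Mylk, log2 change 0.68, and Cald1, 0.605), 1 was lower (Tpm1, -0.297) and 3 did not pass, with a median of 0.22. The summed contractile list was 747 to 1112 CPM in members and 893 to 1132 CPM in other gate cells. Dividing basal cells (85 cells with 8 or more UMIs of the division genes) had 224 ± 79.1 CPM of Cd74, 115 ± 33.6 CPM of Il18r1 and 59.5 ± 23.2 CPM of Clca3a2, between members and other gate cells, 109.7 ± 57.8 CPM of Snai2 and 55.7 ± 9.203 CPM of H2-Ab1 (SD, n = 3 mice). These differences were not tested.

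Few cells of the other libraries passed the same gate, and none of them entered the means, SDs or cut of the score. The score genes were chosen with earlier results of these data known, which may include these libraries. The values below are therefore no independent check. With the means and SDs of the basal sort, 2 of 24 gate cells of the irradiated epithelium scored above the cut, or 8.33% (95% exact interval 1.03 to 27.0%), and 4 of 60 of the untreated epithelium, or 6.67% (1.85 to 16.2%). The intervals cover counting error only, and with 1 library per condition these shares bear on no effect of irradiation. Ranked within the untreated epithelium, the top 9 cells held 91.5 (12 UMIs, 47.3 to 159.9) against 22.1 CPM (16 UMIs, 12.6 to 35.9) of H2-Ab1 in the other 51, with exact Poisson intervals that cover counting error only. For Ltb the values were 61.02 (8 UMIs, 26.3 to 120.2) against 4.14 CPM (3 UMIs, 0.854 to 12.1), and for H2-Q7 221 (29 UMIs, 148 to 318) against 44.2 CPM (32 UMIs, 30.2 to 62.3). For Hp they were 107 (14 UMIs, 58.4 to 179) against 38.6 CPM (28 UMIs, 25.7 to 55.8), and for Cxcl14 38.1 (5 UMIs, 12.4 to 89.00) against 4.14 CPM (3 UMIs, 0.854 to 12.1). These intervals did not overlap. Among genes lower in members, Krt23 had 7.63 (1 UMI, 0.193 to 42.5) against 254 CPM (184 UMIs, 219 to 293), Cyp2f2 30.5 (4 UMIs, 8.31 to 78.1) against 462 CPM (335 UMIs, 414 to 515), Cat 38.1 (5 UMIs, 12.4 to 89.00) against 305 CPM (221 UMIs, 266 to 348) and Igfbp5 30.5 (4 UMIs, 8.31 to 78.1) against 193 CPM (140 UMIs, 163 to 228). The direction was that of the basal sort for all of these. For C3, with 22.9 (3 UMIs, 4.72 to 66.9) against 6.900 CPM (5 UMIs, 2.24 to 16.1), the intervals overlapped, and Gja1 had 0 UMIs in the top 9 cells and 8 in the other 51. In the irradiated epithelium the top 4 cells held 8.47 (1 UMI, 0.215 to 47.2) against 309 CPM (120 UMIs, 256 to 369.8) of Cat and 0 (0 UMIs, 0 to 31.3) against 175 CPM (68 UMIs, 136 to 222) of Cyp2f2 in the other 20, while H2-Ab1 had 8.47 (1 UMI, 0.215 to 47.2) against 12.9 CPM (5 UMIs, 4.18 to 30.1) and H2-Eb1 102 (12 UMIs, 52.5 to 178) against 92.8 CPM (36 UMIs, 65.0 to 128), with intervals that overlapped. Krt15 went against its direction in the basal sort, with 305 (36 UMIs, 214 to 422) against 113 CPM (44 UMIs, 82.4 to 152) and no overlap of the intervals. With 1 library per condition and so few cells, no test was made.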

How the data were processed

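Single cells were captured with the 10x Genomics 3′ kit (v3), per the labels' protocols. The deposited files are filtered matrices of raw UMI counts per gene and per hashtag. The submitters' processing notes name Cell Ranger 6.1.2 and mm10. The matrices held 5044, 3319 and 8277 barcodes (basal sort, irradiated and untreated epithelium) with a median of 11985, 16995 and 6755 UMIs, and 32285 genes. Cells were assigned to mice by their hashtags (HTODemux, Seurat 5.3.0 under R 4.3.3, quantile 0.99 and 5 starting clusters). Members and gene lists were chosen with earlier results of these data known. UMI counts were summed per mouse over members and over other gate cells and tested by quasi-likelihood in edgeR 4.0.16, with filterByExpr, TMM factors and p-values adjusted by Benjamini and Hochberg's method over 10357 tested genes (threshold 0.05). The block was the mouse, because both sums come from the same animals. Deviations from the group means correlated between the sums of a mouse at 0.260, 0.322 and 0.428 over genes, and at or below -0.0299 between mice. The values between mice are no separate evidence, because deviations from a group mean cancel over the mice of the group. The standard error is the log2 change divided by the square root of F. Counts of 10357 genes were simulated from the means and sizes of this comparison. Their spread between samples (dispersion) was set in advance and not estimated from the data. On these counts the test called 17.9% of 1.5-fold, 68.7% of 2-fold and 87.9% of 3-fold changes, and 3.33% of its calls were false. These shares hold for that setting only.

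Named are the score and gate genes, the 12 genes per direction with the largest called change in all 3 mice (mean of at least 20 CPM, no Gm, Rik, mitochondrial, ribosomal protein or histone names), and up to 4 called genes per list (mean of at least 10 CPM), besides genes that a sentence on a list needs. Doublets were treated by hashtag. As an alternative, the 122 cells of highest Scrublet doublet score (scanpy 1.11.5) were removed, a number set from the count of hashtag doublets. Of these, 96 were gate cells, 15 of them members. Shares of cells were compared after thinning to 5000 UMIs. Alternatives covered the block, normalization, filter, tool (DESeq2 1.42.0), hashtag rule, depth and score. Those added after seeing the data were mice by highest hashtag, score-gene ratios with that gene out of the score, and, for the counts of genes and the named genes, members from part of the UMIs and the score after thinning. Gene positions and promoters are from RefSeq (GRCm38.p6).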

Additional observations from a re-analysis of the deposited data

Results flagged for a closer look

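Gate cells without a hashtag call, which entered no comparison, held few members. Of 633 such cells 9 were members, or 1.42% (95% exact interval 0.652 to 2.68%), against 19.5%, 17.3% and 18.8% of the gate cells of mice 1, 2 and 3.

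The hashtag counts, read only to assign mice, followed class I RNA. The class I level of a cell was the summed UMIs of H2-K1, H2-D1 and B2m per 10000 RNA UMIs. Over all 3069 gate cells the Spearman correlation of hashtag UMIs per cell with this level was 0.696. Within mice 1, 2 and 3 it was 0.615, 0.629 and 0.541, and among the 633 cells without a call it was -0.0385. Hashtag UMIs also went with total RNA UMIs (0.419 over all gate cells), and depth and class I level were not separated. These are descriptions across cells of 1 library.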

How the results depend on the processing

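The count of genes higher in members was 720 and that of lower genes 611. Without the replicate block they were 208 and 137, and with DESeq2 289 and 200. Leaving out each mouse in turn gave 469 to 605 higher and 344 to 485 lower genes, the lowest without mouse 1 and the highest without mouse 2 for higher and mouse 3 for lower genes. With members chosen from one part of the UMIs the counts were 539 and 362. The other alternatives gave 537 to 985 higher and 427 to 805 lower genes, within 1.5 times the counts given, and 1 gene in 1 alternative (the top 25% of cells) was called in the opposite direction. Of 91 called genes named in the text (Ovol1 and Itgb6 not counted), 58 kept their call in all alternatives run and none changed sign. Without the replicate block 33 lost it (adjusted p = 0.0629 to 0.732). They were Cald1, Cdkn1a, Cxcl2, Cxcl9, Cyc1, Dll1, Dsc3, Erbb3, Fos, H2-DMa, Hes1, Hspa1a, Id3, Ifi202b, Irf1, Itga6, Jag1, Klk1, Krt16, Lgr6, Mcm4, Mcm5, Mcm6, Notum, Nrp2, Sema3c, Socs3, Stat2, Tgfb2, Timp1, Tpm1, Trp63 and Wfdc18, and 18 of these were also lost with DESeq2. Of 12 named genes that did not pass, Erap1 passed in 6 alternatives and Myd88 in 4. Folds that moved by over 1.5 times, besides those given with the results, were those of Krt6a (log2 change -2.04 to -3.84), Cldn10 (-1.99 to -3.61), Krt23 (-1.79 and -3.31), Cxcl2 (-0.76 and -0.81), Wfdc18 (-0.48 to -2.28), Cdo1 (-3.11), Fos (-1.67), Il33 (-1.25), Tnc (-1.66), H2-Aa (2.46 with the top 25%), H2-DMa (1.60 without mouse 1), Klk1 (-1.43 with the score without Snai2), Ccl2 (0.98 and 1.02) and Krt19, at 0 in members, whose fitted value is no bound. Score-gene ratios (log2) were 2.32, 1.57, 3.17 and 1.28 for Cd74, Il18r1, Clca3a2 and Snai2, 2.11, 1.19, 2.46 and 0.92 with levels from the other part of the UMIs, and 1.45, 1.12, 1.76 and 0.59 with the gene left out of the score, which by construction do not reuse the UMIs that chose the cell. The score genes were chosen with earlier results of these data known, so these ratios are no separate evidence that the genes go together. Shares of members were 29.2% in mouse 1 and 22.1% in mouse 2 where a mouse needed 70% of hashtag UMIs. Mouse 3 then had 144 members and 522 other gate cells, so the shares were less alike than with the main calls. With the top 25% as members they were 31.9, 27.6 and 31.3% in mice 1, 2 and 3, by construction. With 3 mice and 95 members in mouse 2, small changes may be missed. On counts simulated with a dispersion set in advance, 17.9% of 1.5-fold changes were called, and the part of depth in this was not tested.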

Other observations

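Several gene groups showed small or mixed differences between members and other gate cells in the same edgeR fit. Among targets of the YAP coactivator 3 were higher and 1 lower of 14 tested (median log2 change 0.13), led by Ccn2, a matricellular growth factor, with 258 ± 66.6 CPM in members and 123 ± 38.1 CPM in other gate cells (SD, n = 3 mice; log2 fold change 1.14 ± 0.08, adjusted p = 2.09e-15). Among genes of the EGF receptor and its ligands 3 were higher and 3 lower of 12 (median -0.198), with the phosphatase Dusp6 higher (log2 change 0.59) and the receptor Erbb3 lower (-0.75), which did not pass without mouse 1 (adjusted p = 0.252) or mouse 2 (0.0516). On the p53 and senescence list 2 were higher and 2 lower of 17 (median -0.05), and the cell cycle inhibitor Cdkn1a was lower with 292 ± 60.9 CPM in members and 416 ± 51.99 CPM in other gate cells (SD, n = 3 mice; log2 fold change -0.51 ± 0.06, adjusted p = 3.20e-09). Of genes that have been used as marks of salivary or other epithelial progenitors 2 were higher and 6 lower of 13 (median -0.07). Pdpn, podoplanin, was higher (log2 fold change 0.897 ± 0.07, adjusted p = 1.53e-13), and the aldehyde dehydrogenase Aldh3a1 was lower (log2 change -0.88, adjusted p = 3.36e-13). Oxidative phosphorylation genes were lower in 4 of 23 cases and higher in none (median -0.12), led by Cyc1 (log2 change -0.29), which did not pass without mouse 1 (adjusted p = 0.0518) or mouse 3 (0.14).

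Other cell type lists were low in members. Acinar genes summed to 24.3 to 39.4 CPM in members and 33.6 to 49.6 CPM in other gate cells, with 1 of 4 tested genes lower. Ionocyte genes summed to 5.00 to 8.23 CPM in members and 8.01 to 12.5 CPM in others, and the 1 tested gene, Cftr, did not pass. Intercalated duct genes summed to 30.1 to 37.8 CPM in members and 32.5 to 45.3 CPM in others, with 1 of 3 lower. On the basal duct list 2 were higher and 5 lower of 10 tested outside the rule (median -0.23).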
